A study of Mus musculus with 6 samples.

Results

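The bone morphogenetic protein (BMP) pathway was followed in the palatal shelves of mouse embryos through 10 core genes, the ligands Bmp2, Bmp4 and Bmp7, the receptors Bmpr1a, Bmpr1b and Bmpr2, the antagonist Nog, the transducer Smad1 and the target genes Id1 and Id3. The genes were chosen by symbol. All 10 were found by Ensembl ID among the 55631 genes of the expression table, and all 10 passed the filter of a mean of at least 1 FPKM (fragments counted for a gene, divided by its length and by library size) over the 6 libraries, as did 14714 genes in all. RNA was taken at E14.5, when the shelves lift and meet. The 3 control libraries, titled WT, came from embryos of the genotype p130Casfl/fl, with loxP-flanked alleles of the adaptor protein p130Cas and no Cre in the label. The 3 KO libraries came from p130Casfl/fl embryos that also carried CAG-Cre. CAG is a broadly active promoter, so the label does not restrict deletion to a cell type, and an effect of Cre itself cannot be told apart from loss of p130Cas. Litters are not named in the labels, and p-values therefore cover only the spread among these libraries, which may be technical.

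BMP ligands are secreted dimers that bring type I receptors (Bmpr1a, Bmpr1b) and type II receptors (Bmpr2) together. The type II receptor phosphorylates the type I receptor, which phosphorylates Smad1 and its relatives, and these enter the nucleus with Smad4 and switch on targets such as the Id genes, whose products block helix-loop-helix transcription factors. Noggin, the product of Nog, binds the ligands outside the cell. In the mouse palate the pathway is known for its part in mesenchymal growth and in the patterning of the shelves, and loss of Bmpr1a or of Nog can leave the palate open.

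Upstream sequence is shown for a ligand, the 3 receptors and a target, to show what lies before their RefSeq start sites. These sites on GRCm38.p6 were matched for 6 of the 10 genes, in 8 windows of 250 bases, and Bmp2, Bmp7, Nog and Id1 had no entry. The window of Smad1 is not printed. Capitals mark GGCGCC, a GC-rich element known from BMP-responsive enhancers, and GTCTG or its reverse complement CAGAC, the Smad box, each searched on both strands. For Bmpr1a the first 109 bases of the window are given, before an annotated UTR, and for Bmpr2 and Id3, whose windows lie inside a UTR in GENCODE, each match with 10 bases on either side.
Bmp4, chr14:46390670-46390919, minus strand: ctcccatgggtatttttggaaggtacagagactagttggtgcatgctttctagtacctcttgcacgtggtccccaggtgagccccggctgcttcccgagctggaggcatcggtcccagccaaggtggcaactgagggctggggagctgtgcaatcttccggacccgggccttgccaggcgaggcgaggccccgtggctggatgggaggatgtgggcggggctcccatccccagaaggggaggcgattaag
Bmpr1a, chr14:34502688-34502796, minus strand: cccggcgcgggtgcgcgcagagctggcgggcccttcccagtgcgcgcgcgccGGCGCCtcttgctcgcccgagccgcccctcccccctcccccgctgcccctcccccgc
Bmpr1b, chr3:141982265-141982514, minus strand: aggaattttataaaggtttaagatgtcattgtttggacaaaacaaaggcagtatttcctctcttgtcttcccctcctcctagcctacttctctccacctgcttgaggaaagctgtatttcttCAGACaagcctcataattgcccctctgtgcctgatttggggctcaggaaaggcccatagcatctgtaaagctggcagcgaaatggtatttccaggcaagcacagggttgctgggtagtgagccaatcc
Bmpr2, chr1:59764164-59764189, plus strand: ccggcggccgGGCGCCgctgcctgcc
Id3, chr4:136143645-136143669, plus strand: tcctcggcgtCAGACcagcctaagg
Id3, chr4:136143744-136143768, plus strand: acccttggcgGTCTGttttgaataa

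GGCGCC was found 198 bases before the RefSeq start of Bmpr1a and 105 bases before that of Bmpr2, and in 9.59% of all 32851 promoter windows. Id3 held a Smad box 167 and 68 bases before its RefSeq start. Bmpr1b held 1 in each of 2 of its 3 windows, against 42.2% of all windows with at least 1. The windows of Bmpr1a, Bmpr1b, Bmpr2 and Id3 lie inside the gene spans given below, so other annotated starts lie further upstream. Bmp4 and Smad1 held neither element. The combined element GGCGNCNNNNNGTCTG, which joins both kinds, was in 0 of the 8 windows and in 0.0761% of all windows. A match is a string of letters and not a measured site, and the windows do not cover distant enhancers. GC content was 78.8% in the Bmpr1a window, with a median of 52.4% over all windows. It was 46.8% in the Bmpr1b window shown, and 56.4% and 52.8% in the other Bmpr1b windows.

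None of the 10 core genes passed the test between KO and control shelves (limma on log2(FPKM + 1), Benjamini-Hochberg adjusted over all genes, threshold 0.05). Over all genes tested, 0.326% were called higher and 0.0068% lower in KO, and a count of 0 among 10 is near that background. At an unadjusted p under 0.05 the members also counted 0, beside 4.01% of all genes. The 10 fold changes ran from -0.26 for Bmpr1b to 0.07 for Bmp2 on the log2 scale, with a median of -0.08 beside -0.02 for all tested genes, and 6 of the 10 lay below 0 beside 59.4% of all genes. For 9 of the 10 members the 95% interval of the difference in log2(FPKM + 1) lay within a 1.5-fold change either way, as it did for 91.5% of all genes. The exception was Bmpr1b. The added 1 shrinks the fold changes of low genes, so for them the bound allows more than a 1.5-fold change in FPKM. With a pseudocount of 0.1 the log2 fold change of Nog was -0.128 ± 0.204 (SE), beside -0.111 ± 0.173 in the main fit. Read numbers are not known, so no counting error can be given.

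**Figure D1:**
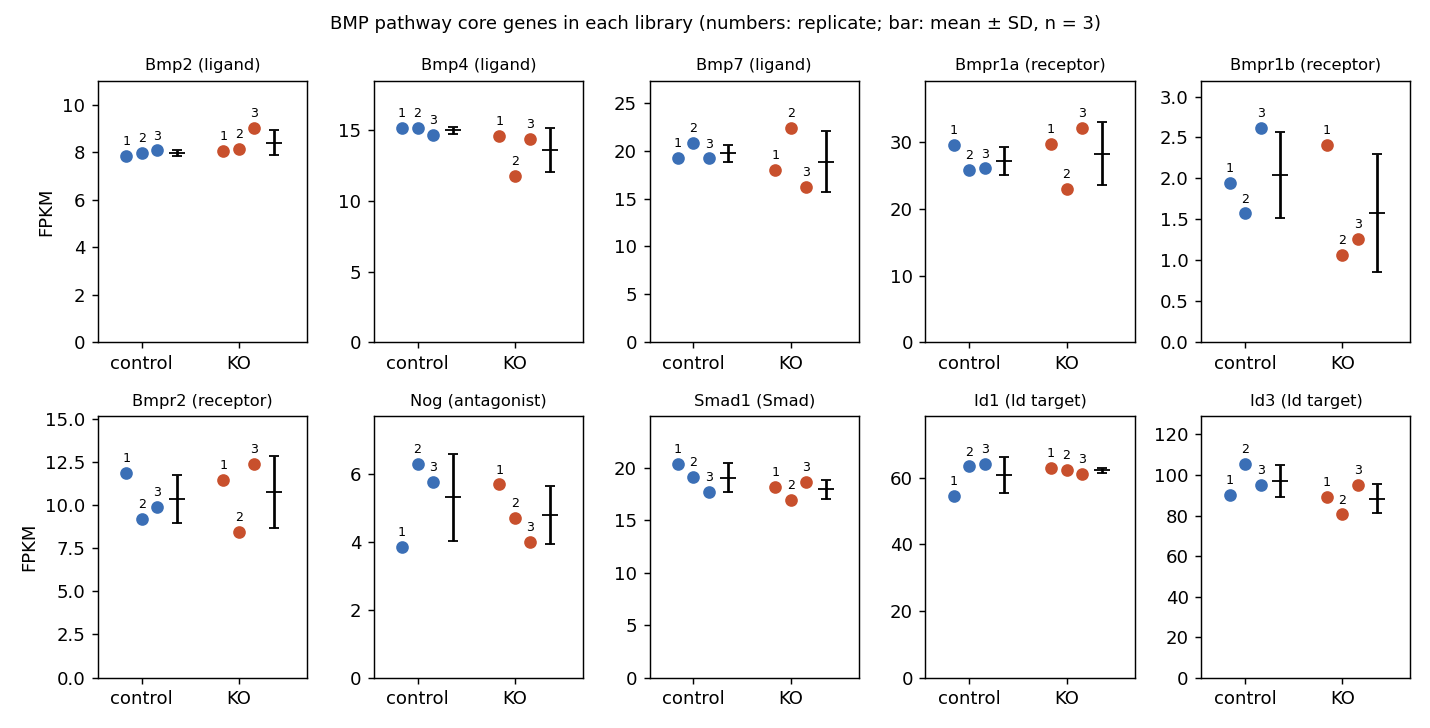
Expression of the 10 core genes in FPKM (vertical axes, each from 0) in the 3 control (blue) and 3 KO (orange) libraries, numbered by replicate, with the mean ± SD of each group as a bar. The groups overlap for every gene except Bmp4, whose 3 KO values lie between 11.8 and 14.6 FPKM, below the controls.

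Of the ligands, Bmp4, a ligand that acts with Msx1 in the palatal mesenchyme, had 15.1, 15.2 and 14.7 FPKM in the 3 controls, in replicate order, against 14.6, 11.8 and 14.4 FPKM in the KO libraries. Every KO library lay below every control, by a narrow margin in KO replicates 1 and 3 and a wider one in KO replicate 2. It was the only core gene whose groups did not overlap, 1 of 10, where 9.06% of all tested genes did not overlap (5.79% with KO lower). The group means were 15.0 ± 0.264 and 13.6 ± 1.55 FPKM (SD, n = 3 each), and the log2 fold change was -0.14 ± 0.09 (SE, 95% interval -0.35 to 0.07, limma adjusted p = 1.00). A two-sided exact permutation test on Bmp4 alone returned p = 0.1, the lowest possible with 20 assignments of 6 libraries. Groups of 3 without overlap always give this value, so it adds nothing to the non-overlap. Without KO replicate 2 the log2 fold change was -0.05, and with library weights -0.08. Gm15217, annotated antisense to Bmp4 and overlapping its exons, stood at a mean of 0.208 FPKM. The strand setting of the counting is not given, so reads of the pair cannot be told apart.

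Bmp2, the closest relative of Bmp4, was at 7.84, 7.97 and 8.09 FPKM in control and 8.06, 8.14 and 9.03 FPKM in KO replicates 1 to 3. It was among the steadiest members, and KO replicate 3 alone stood clear of the rest. Its log2 fold change was 0.07 ± 0.07 (SE, 95% interval -0.10 to 0.24), and 0.02 without KO replicate 3. Bmp7, a ligand of the oral epithelium and of many other tissues, was at 19.2, 20.8 and 19.2 FPKM in control and 18.0, 22.3 and 16.2 FPKM in KO replicates 1 to 3. KO replicates 1 and 3 lay below every control and KO replicate 2 above them. Its log2 fold change was -0.07 ± 0.11 (SE, 95% interval -0.33 to 0.19). Per length, Bmp7 was the most abundant of the 3 ligands in every library, at 1.13 to 1.90 times Bmp4, and Bmp4 was at 1.45 to 1.93 times Bmp2.

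Of the type I receptors, Bmpr1a, which is expressed in many tissues, was at 29.6, 25.8 and 26.0 FPKM in control and 29.7, 23.0 and 32.1 FPKM in KO replicates 1 to 3. KO replicate 2 was lowest and KO replicate 3 highest of all 6 libraries. The log2 fold change was 0.05 ± 0.12 (SE, 95% interval -0.24 to 0.33). The antisense transcript Gm17110 overlaps its exons, at a mean of 0.505 FPKM. The type II receptor Bmpr2 was at 11.9, 9.21 and 9.91 FPKM in control and 11.4, 8.42 and 12.4 FPKM in KO replicates 1 to 3, with a log2 fold change of 0.04 ± 0.15 (SE, 95% interval -0.30 to 0.38). Bmpr1a and Bmpr2 ordered the libraries alike in 14 of the 15 pairs of libraries, and their ratio ran only from 2.49 to 2.80.

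Bmpr1b, a type I receptor known from cartilage condensations, was the lowest and the most variable core gene. It was at 1.95, 1.57 and 2.61 FPKM in control and 2.41, 1.07 and 1.26 FPKM in KO replicates 1 to 3. KO replicate 1 stood with the highest control, while KO replicates 2 and 3 lay below every control. The log2 fold change was -0.26 ± 0.21 (SE, limma adjusted p = 1.00), and its 95% interval of -0.75 to 0.23 extends past a 1.5-fold decrease. The estimate was -0.48 without KO replicate 1, -0.12 without KO replicate 2, -0.13 without control replicate 3 and -0.41 with a pseudocount of 0.1, and it turned to 0.03 with library weights. Its range over the 6 libraries, 0.80 on the log2(FPKM + 1) scale, stood at percentile 94.1 of all tested genes, whereas that of Bmp2, 0.18, stood at percentile 16.1. Bmpr1a exceeded it by 9.96 to 25.4 times in all 6 libraries.

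Nog was at 3.87, 6.32 and 5.77 FPKM in control and 5.70, 4.71 and 4.01 FPKM in KO replicates 1 to 3. Control replicate 1 held the lowest value and the other 2 controls the highest, so the KO libraries lay inside the range of the controls. The log2 fold change was -0.11 ± 0.17 (SE, 95% interval -0.51 to 0.29). Smad1, which carries the signal to the nucleus, was at 20.4, 19.1 and 17.7 FPKM in control and 18.2, 16.9 and 18.7 FPKM in KO replicates 1 to 3. Its groups overlapped, with KO replicate 2 lowest, and the log2 fold change was -0.08 ± 0.08 (SE, 95% interval -0.26 to 0.09). It was -0.03 without control replicate 1, -0.04 without KO replicate 2, -0.05 with library weights and -0.13 without control replicate 3.

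The Id genes are known direct targets of the BMP Smads. Id1 was at 54.5, 63.4 and 64.2 FPKM in control and 62.9, 62.3 and 61.2 FPKM in KO replicates 1 to 3. The KO libraries lay within 2 FPKM of each other and inside the range of the controls, with a log2 fold change of 0.04 ± 0.07 (SE, 95% interval -0.14 to 0.21). Id3 was at 90.1, 105.6 and 95.1 FPKM in control and 89.3, 80.6 and 95.1 FPKM in KO replicates 1 to 3. KO replicates 1 and 2 lay below the controls and KO replicate 3 among them, and the log2 fold change was -0.13 ± 0.09 (SE, 95% interval -0.34 to 0.07). Without control replicate 2 or without KO replicate 2 it was -0.07. Id3 exceeded Id1 in every library, by 1.48 to 1.67 times in control and 1.29 to 1.55 times in KO libraries.

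**Figure D2:**
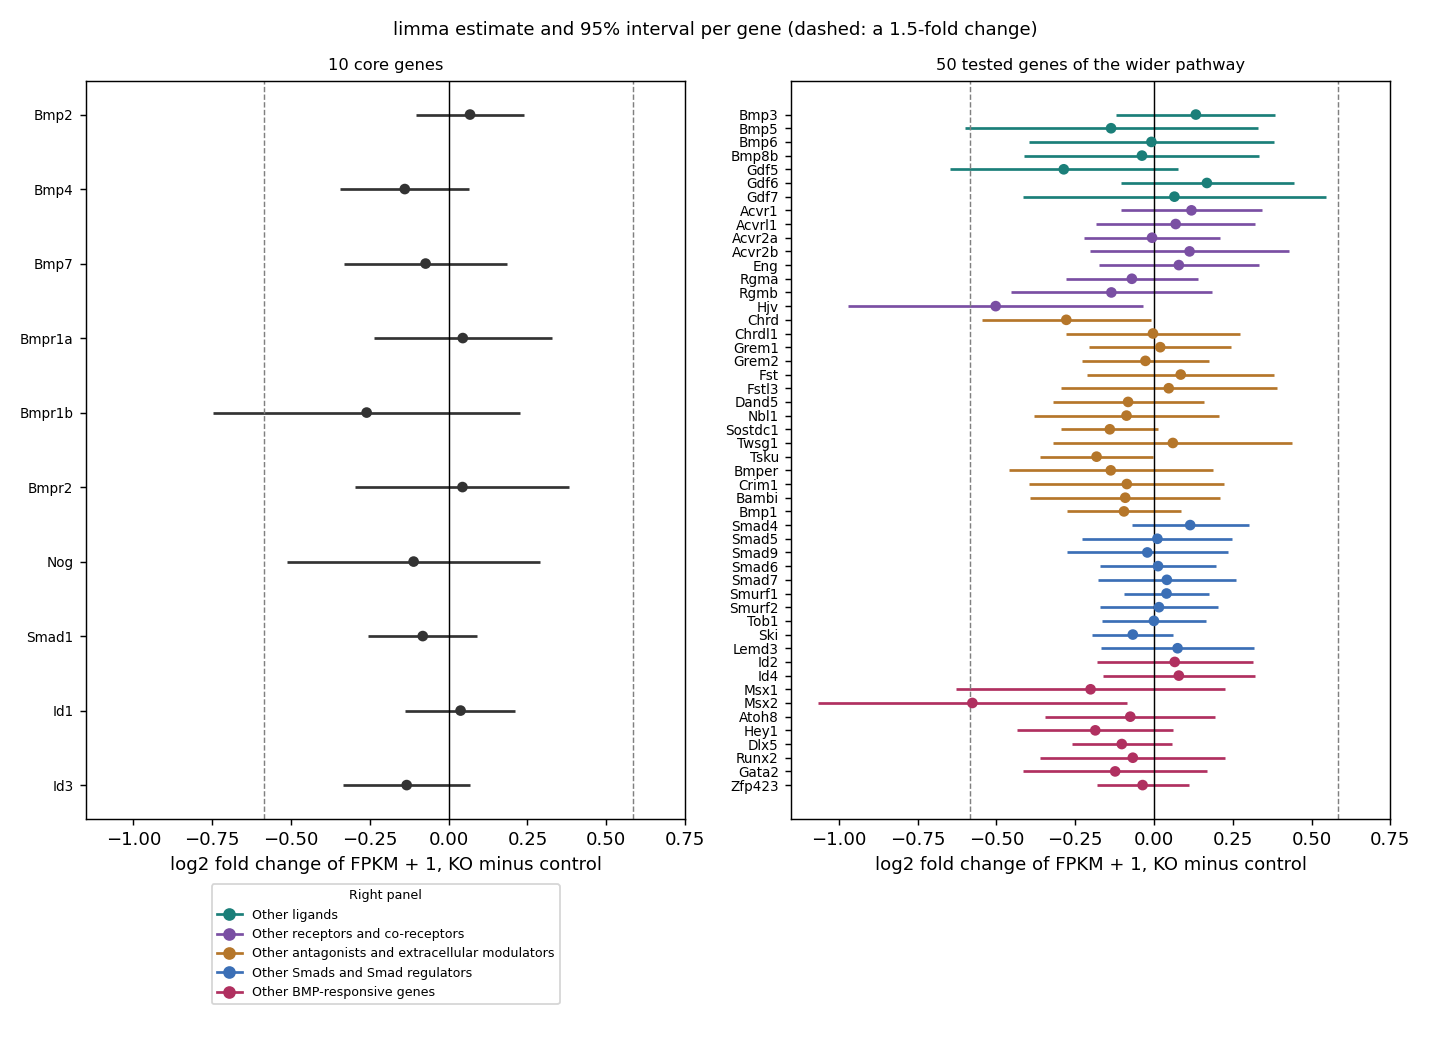
Log2 fold change of FPKM + 1, KO minus control, with its 95% interval from limma (horizontal axes), for the 10 core genes (left) and the 50 tested genes of the wider pathway coloured by role (right). Dashed lines mark a 1.5-fold change, which the interval of Bmpr1b crosses among the core genes.

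In order of FPKM averaged over the 6 libraries the members ran from Id3 at 92.6, Id1 at 61.4, Bmpr1a at 27.7, Bmp7 at 19.3, Smad1 at 18.5, Bmp4 at 14.3, Bmpr2 at 10.5, Bmp2 at 8.19 and Nog at 5.06 down to Bmpr1b at 1.81. Bmp7 and Smad1 could not be ordered, with Bmp7 higher in 3 of 6 libraries. The ranges of Bmp4 and Bmpr2 overlapped, as did those of Bmpr2 and Bmp2, although within each library the order held in 6 of 6. The other neighbours did not overlap in range. Among tested genes the level of Id3 lay at percentile 96.3 and that of Bmpr1b at percentile 11.1.

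Deviations from each gene's own mean showed how the members varied among themselves. KO replicate 2 was the lowest of the 6 libraries for 6 members, Bmp4, Bmpr1a, Bmpr1b, Bmpr2, Smad1 and Id3, where it was lowest for 28.4% of all tested genes. For Bmp7 it was the highest. Over the 45 pairs of members, the number of library pairs put in the same order ran from 1 to 14 of 15. Nog and Id1 shared the order of 14, as did Bmpr1a and Bmpr2. Bmp7 shared the order of 1 of 15 with Bmpr1a and 2 of 15 with Bmpr2, but of 5 of 15 with Bmpr1b.

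**Figure D3:**
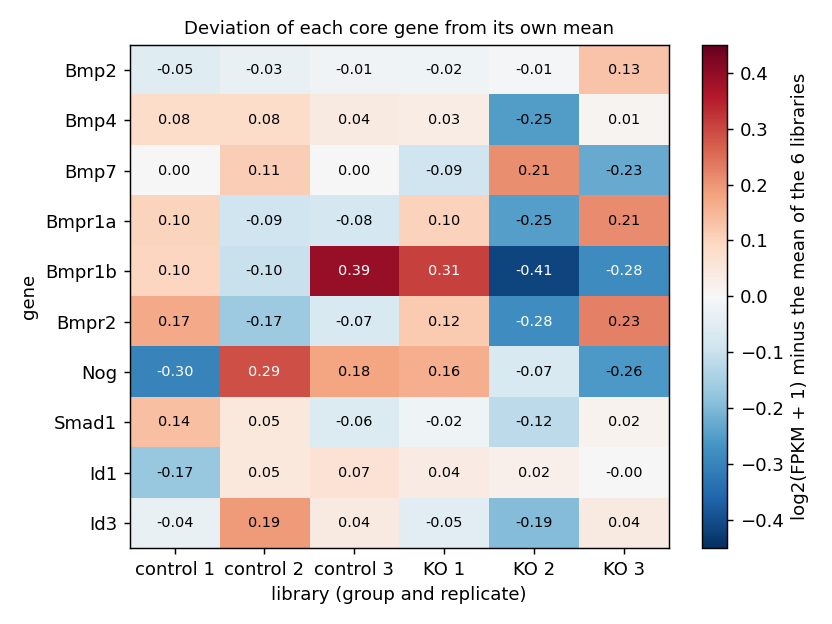
Deviation of log2(FPKM + 1) from the mean of the 6 libraries (colour and printed value) for each core gene (rows) in each library (columns). Bmpr1b has the widest spread, from -0.41 in KO replicate 2 to 0.39 in control replicate 3, and KO replicate 2 is lowest in 6 rows.

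Cell type markers were summed per library, because in bulk tissue fewer cells of a type and less RNA per cell cannot be told apart. All 10 markers of palatal mesenchyme, among them Osr2, Shox2 and Pax9, were at 1 FPKM or more in all 6 libraries, summing to 581 to 613 FPKM in control and 552 to 695 FPKM in KO libraries. Bmpr2 ordered the libraries as that sum did in 15 of 15 pairs and Bmpr1a in 14 of 15, where 6.65% of all tested genes reached 14. Epithelial markers, 10 of 10 also at 1 FPKM or more, summed to 379 to 497 FPKM in control and 331 to 583 FPKM in KO libraries. Bmp7 followed their order in 13 of 15 pairs, where 3.48% of tested genes reached 13.

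Cartilage markers spread widely, at 327, 286 and 602 FPKM in control and 703, 160 and 143 FPKM in KO replicates 1 to 3, and 11 of 12 were above 0 in all libraries, the exception being Snorc. Of the 12, 1 had a log2 fold change above 0, where 59.4% of all tested genes lay below 0. The median of the 12 was -0.777, and 0 passed in limma. Bmpr1b followed the cartilage sum in 13 of 15 pairs, where 2.22% of tested genes reached 13. These 90 relations of a member with a marker sum were computed together, and 6 reached 13 or more, the other 2 being Id1 with skeletal muscle and Id1 with neurons and glia. At the opposite end 4 shared the order of 2 of 15 pairs, which were Bmp4 and Smad1 with leukocytes, Bmp7 with palatal mesenchyme and Bmpr2 with epithelium. They are descriptions of 6 libraries, and the part of cell makeup in the members' values was not tested. Leukocyte markers, all 10 above 0 in every library, summed to 46.1 to 54.9 FPKM in control and 63.1 to 85.2 FPKM in KO libraries. The endothelial ones summed to 151 to 172 and 119 to 148 FPKM. Neither sum overlapped between the groups, where 9.06% of single tested genes did not overlap. In limma 0 tested markers of either list passed. Those of bone (387 to 639 FPKM in control and 279 to 499 FPKM in KO), of neurons and glia (63.3 to 107 and 53.8 to 87.8 FPKM) and of pericytes and smooth muscle (136 to 158 and 139 to 148 FPKM) overlapped.

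**Figure D4:**
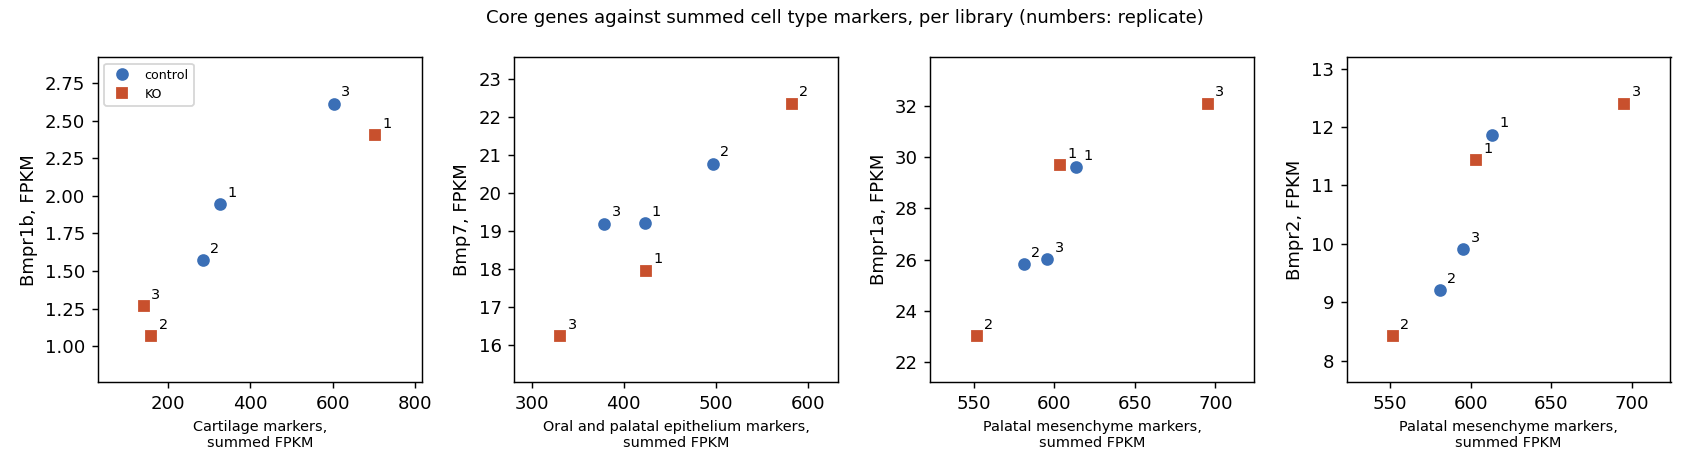
FPKM of Bmpr1b, Bmp7, Bmpr1a and Bmpr2 (vertical axes) against the summed FPKM of cartilage, epithelial and palatal mesenchyme markers (horizontal axes) in each library, numbered by replicate, with control as blue circles and KO as orange squares. KO replicate 1 and control replicate 3 are high in both cartilage markers and Bmpr1b, and KO replicates 2 and 3 low in both.

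Genes of like profile were sought for the members with the widest range, by the root mean square difference of centred log2(FPKM + 1) over the 6 libraries. For Bmpr1b the nearest 3 tested genes were Cspg4 at 0.06, Fzd9 at 0.07 and Mecom at 0.07. Cspg4, a proteoglycan, was at 9.17, 7.82 and 12.1 FPKM in control and 11.3, 7.02 and 7.58 FPKM in KO replicates 1 to 3. For Nog, Chl1 at 0.05 and Mir7060 at 0.07 were among the nearest 3. Chl1 stood at 0.829 to 1.59 FPKM and Mir7060 at 0.639 to 1.65 FPKM over the 6 libraries, both near the filter of 1 FPKM.

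The wider pathway was counted from a list by role, of which 57 genes were in the table and 50 were tested. None of the 50 passed in limma, beside 0.333% of all genes. At an unadjusted p under 0.05 there were 4, all lower in KO (Hjv, Chrd, Tsku and Msx2), beside 4.01% of all genes in either direction and 1.92% with KO lower. Groups did not overlap for 2 higher and 4 lower genes, beside 3.27% and 5.79% of all genes. The median log2 fold change was -0.02, as for all tested genes. For 45 of the 50 the 95% interval lay within a 1.5-fold change of FPKM + 1, a looser bound on FPKM itself for low genes.

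Of the 7 other ligands tested, 0 passed. Gdf5, a factor of joints and cartilage, had 1.45 ± 0.457 FPKM in control against 0.991 ± 0.207 FPKM in KO shelves (SD, n = 3 each), Gdf6 at 1.25 ± 0.183 and 1.53 ± 0.229 FPKM, Bmp3 at 4.84 ± 0.323 and 5.43 ± 0.788 FPKM and Bmp5 at 3.19 ± 0.745 and 2.86 ± 1.02 FPKM. Bmp10 and Gdf2, ligands made mainly in heart and liver, were listed at 0 in all 6 libraries, and Bmp8a did not reach the filter. Of the 8 other receptors and co-receptors 0 passed. Hjv, the co-receptor hemojuvelin of muscle and liver, stood at 4.07, 6.49 and 7.53 FPKM in control and 3.17, 4.66 and 3.84 FPKM in KO replicates 1 to 3. The groups overlapped through control replicate 1, and the log2 fold change was -0.50 ± 0.20 (SE, limma adjusted p = 1.00, and from 0.169 to 1.00 over the alternatives). Skeletal muscle markers summed to 246 to 430 FPKM in control and 251 to 360 FPKM in KO libraries, and their part was not tested. Acvr1, a further type I receptor, was at 15.4, 13.5 and 13.1 FPKM in control and 15.3, 13.7 and 17.0 FPKM in KO replicates 1 to 3, with overlap. Rgmb was at 11.6 ± 1.94 and 10.5 ± 1.57 FPKM and Acvr2b at 4.23 ± 0.812 and 4.62 ± 0.554 FPKM.

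Of the 15 tested antagonists and extracellular modulators 0 passed. Chrdl2, Cer1, Sost and Tll1 did not reach the filter. Chrd, which encodes the ligand trap chordin, was at 6.51, 6.22 and 6.99 FPKM in control and 5.83, 4.29 and 5.73 FPKM in KO replicates 1 to 3. Each KO library was below the controls, KO replicate 2 by most, and the log2 fold change was -0.28 ± 0.12 (SE, limma adjusted p = 1.00). The log2 fold change of Chrd was -0.16 without KO replicate 2 and -0.17 with library weights. Tsku, which encodes the secreted modulator tsukushi, was at 21.4 ± 1.60 and 18.7 ± 1.11 FPKM. Sostdc1, an antagonist made in epithelium, was at 28.7 ± 1.94 and 25.9 ± 0.301 FPKM, without overlap. Bmp1, a protease that cleaves chordin and not a BMP ligand, was at 92.8 ± 5.47 and 86.9 ± 6.79 FPKM.

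Of the 10 other Smads and Smad regulators 0 passed. Smad4, the shared partner of the Smads, had 26.4 ± 1.28 FPKM in control against 28.8 ± 2.57 FPKM in KO shelves, and Ski, a repressor of Smad transcription, at 58.5 ± 1.45 and 55.8 ± 1.31 FPKM. Smurf1, a ubiquitin ligase for Smad1, was at 14.8 ± 0.310 and 15.3 ± 0.169 FPKM, and Lemd3 at 6.52 ± 0.494 and 6.95 ± 0.906 FPKM. The groups of Ski and Smurf1 did not overlap, though the KO mean stood only -4.64% and 3.02% from the control mean.

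Of the 10 other BMP-responsive genes 0 passed. Msx2, a homeobox gene of skull and palate, stood at 6.48, 5.27 and 7.88 FPKM in control and 5.09, 2.63 and 4.67 FPKM in KO replicates 1 to 3. KO replicate 1 lay just below control replicate 2 and KO replicate 2 far below it. The log2 fold change was -0.58 ± 0.21 (SE, 95% interval -1.07 to -0.09, unadjusted p = 0.0271, limma adjusted p = 1.00), and the adjusted p ran from 0.394 to 1.00 over the alternatives. The log2 fold change of Msx2 was -0.34 without KO replicate 2 and -0.32 with library weights. On its own it had p = 0.1 in the two-sided exact permutation test, again the lowest possible and the value that groups of 3 without overlap always give. Its relative Msx1 was at 76.3, 101 and 57.4 FPKM in control and 60.5, 66.9 and 71.7 FPKM in KO replicates 1 to 3, with the KO values inside the range of the controls. Hey1 was at 12.3 ± 1.56 and 10.7 ± 1.03 FPKM, and Dlx5 at 22.4 ± 0.779 and 20.8 ± 1.33 FPKM.

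The targeted gene Bcar1, which encodes p130Cas, was at 1.80, 1.97 and 2.09 FPKM in control and 1.69, 1.69 and 1.31 FPKM in KO replicates 1 to 3. It was lower in KO without overlap, as were 5.79% of all tested genes, and not past the test (limma adjusted p = 1.00). Whether exons outside the loxP sites count towards this value was not tested. These values alone do not show the extent of the deletion. On GRCm38, Bmp2 lies on chromosome 2 from 133552159 to 133562885, Bmp7 on chromosome 2 from 172868012 to 172940321 and Id1 on chromosome 2 from 152736251 to 152737410. Bmp4 lies on chromosome 14 from 46383520 to 46390669 and Bmpr1a on chromosome 14 from 34410734 to 34503341. Bmpr1b spans 141837136 to 142169425 on chromosome 3, Bmpr2 59763400 to 59879014 on chromosome 1 and Nog 89300638 to 89302332 on chromosome 11. Smad1 spans 79338395 to 79399518 on chromosome 8 and Id3 136143497 to 136145755 on chromosome 4.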

How the data were processed

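RNA of E14.5 palatal shelves was sequenced, per the labels, in 3 libraries of each genotype. The authors deposited 1 table of FPKM values, a unit known from the table's name. Per the submitters' processing notes the build was mm10, and DESeq2 version 1.5.2 was used. How reads were aligned and counted, with which annotation and strand, is not given in the sources used here. FPKM summed to between 384979 and 424993 per library, and 21500 to 21869 genes were above 0. The smallest value above 0 in a library lay between 0.100 and 0.118 FPKM. Depth is not known from these values.

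Columns were matched by library name, and IDs to symbols and coordinates in GENCODE M21 (GRCm38), with 50876 matched. Genes averaging 1 FPKM or more were fitted as log2(FPKM + 1) in limma version 3.58.1 (R version 4.3.3), with genotype as the only term and eBayes with a trend. The model was tested on simulated data. There it recovered 56.7% of genes with a log2 change of 0.5, 86.6% at 1 and 98.5% at 2, and 4.17% of its calls were false. Many changes of 0.5 or less would thus be missed. Fold changes on this scale understate those of low genes. Alternatives were a pseudocount of 0.1, no filter, a filter at 5 FPKM, quantile normalization, median-of-ratios scaling, no trend, library weights, a replicate block and each library left out. Named were all members, up to 4 wider-list genes per role with the smallest p, 3 genes of like profile for each of 2 members, and Bcar1. Like profiles were taken from genes other than predicted, Rik and pseudogenes. The members and lists were chosen with earlier results of these data known. One gene of like profile to Nog is not reported here.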

Additional observations from a re-analysis of the deposited data

How the results depend on the processing

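None of the core genes and none of the wider list passed under any of the 14 alternatives, where the lowest adjusted p in limma was 0.339 for a core gene and 0.169 for the wider list, both with library weights. At an unadjusted p under 0.05, Bmpr1b counted without KO replicate 1 and Bmp7 without KO replicate 2. The count over all genes was 49. It fell to 24 (all higher in KO) with a filter at a mean of 5 FPKM, which of the core genes left only Bmpr1b untested, rose to 69 with no filter and 67 with library weights, and ran from 33 to 50 with a library left out. Titles number the replicates 1 to 3 in both groups. With the replicate block 42 genes were called and 0 core genes. Same-numbered libraries deviated from their group means with correlations across genes of 0.02, 0.31 and -0.24. Control replicate 1 with KO replicate 3 also had 0.31. With 3 libraries per group these values cannot decide whether the numbers pair the samples. Of 427 single-gene values under alternatives 14 turned sign, 2 with library weights and the others with a library left out. With library weights Bmpr1b turned to 0.03 and Bmp5 to 0.105, and the cause was not tested. With a library left out the log2 fold change ran from -0.196 to 0.023 for Bmp7, -0.05 to 0.18 for Bmpr1a, -0.059 to 0.195 for Bmpr2, -0.288 to 0.006 for Nog, -0.037 to 0.080 for Id1, -0.340 to 0.006 for Bmp5, -0.013 to 0.214 for Acvr2b, -0.00 to 0.17 for Lemd3 and -0.40 to 0.001 for Msx1. The sign of each of these 9 genes turned with at least 1 library left out. Library weights took Bmp7 to -0.153, Bmpr1a to 0.149, Bmpr2 to 0.192 and Id1 to 0.004, and quantile normalization took Bmpr1a to 0.079 and Id1 to 0.064, each with its sign kept.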
